A study of Mus musculus with 60 samples.

Results

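The genes described here are the clustered and linker histone genes of the mouse, that is, every symbol in the culture table made of H1f, H2ac, H2bc, H3c or H4c followed by a number. They were chosen by symbol and were 67 of the 39756 genes of the table. Of these, 39 had a mean of at least 1 TPM (the authors' unit of level, scaled by transcript length and library total) over the 48 libraries and could be tested, and 28 lay below that limit. The group was proposed after H1f5 had been seen lower at DIV5 with paxillin siRNA, so the values of H1f5 in that comparison are a description only. Primary cortical cultures were prepared from wild-type mouse embryos, at E18 per the labels, while the study's text describes the sequenced mouse cultures as E15, so the age at preparation is uncertain. The cultures were treated at DIV2 (day 2 in vitro) with either 2 pooled siRNAs against paxillin or scrambled (SC) siRNA. Some also received BDNF, at 20 ng/ml, on that day. Libraries were made at DIV3, DIV5 and DIV10. Without BDNF there were 3, 4 and 3 SC libraries and 5, 6 and 4 paxillin siRNA libraries at these days, and with BDNF there were 3, 4 and 3 SC libraries and 4, 5 and 2 paxillin siRNA libraries. The 2 remaining libraries are labelled E15, which the study sets equal to DIV0, and had no siRNA or BDNF. Hippocampus was sequenced separately by long reads in 12 libraries, 2 for each of P10, P15 and P21 in mice labelled WT (called control here) and in mice labelled paxillin KO and paxillin-S119A-KI (called S119A here), which carry a paxillin with an alanine in place of a serine. The study describes the S119A mice as Nestin-CreERT2 animals given tamoxifen from P5, so recombination is limited to cells that had expressed Nestin. The hippocampus was sequenced in bulk. For the control, the study's long-read legend names paxillin fl/S119A mice, that is, the same paxillin alleles without Nestin-CreERT2. Its methods state that controls were littermates given the same tamoxifen. Label and study thus differ, and the control genotype is uncertain. The question of the culture experiment was how RNA processing changes with days in culture, paxillin and BDNF, and the histone genes were read from the same libraries.

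Core histones H2A, H2B, H3 and H4 form the nucleosome, and linker histones of the H1 family bind the DNA between nucleosomes. Most of the genes lie in clusters, are copied into mRNA mainly in S phase, and give mRNAs that end in a conserved stem-loop in place of a poly(A) tail. Some members, such as H1f0, lie outside the clusters and give polyadenylated mRNA in non-dividing, differentiated cells, and several cluster genes can also give polyadenylated mRNA when cells leave the cycle. The short-read libraries were made with an mRNA kit, and how much of each mRNA with a stem-loop end it captured was not tested.

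Within a group, values are listed by culture number, and these orders hold throughout. At DIV3 they are cultures 1, 2 and 3 for both SC groups, 1, 10, 11, 2 and 3 for paxillin siRNA, and 1, 10, 11 and 2 for paxillin siRNA with BDNF. At DIV5 they are 1, 2, 3 and 4 for both SC groups and 1, 10, 11, 2 and 4 for paxillin siRNA with BDNF, and the 6 libraries with paxillin siRNA alone are given by their lowest, median and highest value. At DIV10 they are 1, 3 and 6 for SC siRNA, 1, 2 and 3 for SC siRNA with BDNF, 1, 10, 11 and 2 for paxillin siRNA, and 10 and 11 for paxillin siRNA with BDNF. Libraries of 1 culture number appear in several groups, and nothing else states whether libraries came from separate animals, so p-values measure the spread between these libraries. The table gives no counts, and the depth behind a TPM value is unknown. RNA came from whole cultures, so fewer cells of a type and less RNA per cell cannot be told apart. The neuronal, astrocyte, oligodendrocyte, microglial and progenitor markers examined were above 0 in every library, but some only just, such as microglial P2ry12 at a lowest of 0.028 TPM. A value above 0 does not by itself show that a cell type was present. Olig1 of the oligodendrocyte lineage was at 88.4 TPM or above, and the astrocyte marker Gfap ranged from 4.75 to 5459 TPM. Cultures labelled cortical neuron thus held RNA of markers of other cell types as well, at very different levels.

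The members lie on 4 chromosomes of the genome (GRCm38). The cluster on chromosome 13, between positions 21715711 and 23934913, holds 53 of them, and the cluster on chromosome 3, between 96219885 and 96270192, holds 10. Chromosomes 6 and 15 hold 2 members each, H1f10 and H1f8 on the former and H1f0 and H1f7 on the latter. A 16-base histone stem-loop was found in a transcript model of 39 of the 67 members. The sequences below are shown because the genes they end are those whose levels are described further on, and they are given 5′ to 3′ with the stem-loop in capitals and 5 bases on each side.
H1f2: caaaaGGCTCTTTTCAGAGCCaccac
H1f4: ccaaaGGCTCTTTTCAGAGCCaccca
H2ac6: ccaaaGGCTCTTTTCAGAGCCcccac
H2bc8: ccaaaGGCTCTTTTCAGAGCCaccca
H3c4: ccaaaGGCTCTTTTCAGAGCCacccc
H4c8: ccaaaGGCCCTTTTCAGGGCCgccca
H4c9: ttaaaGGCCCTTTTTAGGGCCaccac
These windows lie in the 3′ UTR of single-exon genes, at chr13:23739507-23739532 (plus strand) for H1f2, chr13:23621777-23621802 (minus) for H1f4, chr13:23683472-23683497 (minus) for H2ac6, chr13:23571838-23571863 (plus) for H2bc8, chr13:23576239-23576264 (plus) for H3c4, chr13:23531453-23531478 (plus) for H4c8 and chr13:22040961-22040986 (minus) for H4c9. The loop printed for H1f2, H1f4, H2ac6, H2bc8 and H3c4 was the most frequent and occurred in 24 members, and the one printed for H4c8 occurred in 6 members. The transcript model of H4c8 ended 46 bases after the loop, whereas those of H1f4 and H2ac6 ran on for 1153 and 2010 bases. Of the 39 members tested, 10 had a model with more than 200 bases after the loop, 12 had a shorter one, 10 had a model with a 3′ UTR and no such loop, and 7 had a model that ends with or next to the coding sequence, in which a loop could not be looked for. Models without a loop carried 77.2% of the summed mean TPM, long models carried 18.4%, and short models carried 2.22%.

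The promoters of H1f2, H1f4 and H2bc15 are shown because these genes rose from DIV3 to DIV10 in all 4 treatment arms. Each is the 250 bases before the start in RefSeq (GRCm38.p6), 5′ to 3′ on the strand of the gene, with motifs in capitals.
H1f2: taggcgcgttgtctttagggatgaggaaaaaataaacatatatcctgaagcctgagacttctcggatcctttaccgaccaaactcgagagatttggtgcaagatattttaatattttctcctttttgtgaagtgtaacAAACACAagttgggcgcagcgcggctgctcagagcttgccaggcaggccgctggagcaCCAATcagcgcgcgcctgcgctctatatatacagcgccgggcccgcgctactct
H1f4: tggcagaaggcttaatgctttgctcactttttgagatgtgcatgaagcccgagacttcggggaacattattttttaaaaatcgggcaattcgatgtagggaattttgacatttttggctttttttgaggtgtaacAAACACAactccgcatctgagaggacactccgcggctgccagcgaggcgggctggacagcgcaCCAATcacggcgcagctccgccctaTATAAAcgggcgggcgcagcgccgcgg
H2bc15: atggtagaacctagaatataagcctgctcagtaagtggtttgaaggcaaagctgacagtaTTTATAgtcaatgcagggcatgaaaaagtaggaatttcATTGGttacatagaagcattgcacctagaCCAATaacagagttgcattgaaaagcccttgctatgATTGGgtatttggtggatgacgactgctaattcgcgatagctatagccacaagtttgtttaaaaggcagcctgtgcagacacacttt
They lie at chr13:23738557-23738806 (plus strand), chr13:23622559-23622808 (minus) and chr13:21753826-21754075 (plus), and the window of H2bc15 runs into its neighbour H2ac15, which spans 21753377 to 21753912. Letters were searched on both strands for the TATA box (TATAAA), the CCAAT box (CCAAT), the octamer (ATTTGCAT) and the H1 box (AAACACA), in the 62 members that had a RefSeq promoter and in all 27025 promoters. The promoters of H1f2 and H1f4 held the H1 box 112 and 115 bases before the start, and the CCAAT box 54 and 52 bases before it. The promoter of H2bc15 held 3 CCAAT boxes and neither the octamer nor the H1 box. The CCAAT box was in 79.03% of the members' promoters and in 34.5% of all promoters, and the TATA box was in 45.2% against 12.97%. The octamer was in 19.4% of the members' promoters, all of them H2ac or H2bc genes, against 1.61% of all promoters. The H1 box was in 14.5% against 6.22%, and 5 of the 10 H1f promoters held it. A match is a description of these letters in this window only.

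Linker histone genes dominated the measured level of the group. H1f0, H1f10 and H1f2 made up between 74% and 93.8% of the summed TPM of the 67 members in each library, with a median of 89.3%. Over all libraries the mean of H1f0 was 914 TPM, that of H1f10 was 450 TPM, and that of H1f2 was 286 TPM. The highest core histone genes were H2bc21 at 47.1 TPM, H2bc4 at 21.1 TPM, H4c9 at 19.4 TPM, H4c12 at 18.7 TPM and H4c8 at 12.4 TPM, so 8 members had a mean over 10 TPM. By family, 7 of 10 H1f genes, 8 of 17 H2ac genes, 5 of 16 H2bc genes, 8 of 12 H3c genes and 11 of 12 H4c genes reached 1 TPM. The H1f genes held 89.2% of the summed mean level, the H2bc genes 4.39%, the H4c genes 3.91%, the H2ac genes 1.28% and the H3c genes 1.21%. Members listed at 0 in every library were 7, namely H1f7, H2ac23, H2ac24, H2bc1, H2bc23, H3c14 and H3c15, of which H1f7 and H2bc1 are known from the male germ line. The lowest member that passed was H2ac15 at 1.05 TPM, and H3c1 at 0.993 TPM lay just under the limit. Many members are near-copies of each other, and the division of reads among them was left to the authors' estimation. Among the 39 members tested, the share of 100-base windows of the transcript found in no other transcript had a median of 69.3%, and 12 members had under 50%, among them H2bc15 at 47.9% and H4c12 at 35.7%, so their values are uncertain. The windows of H1f0, H1f10, H1f5 and H2bc21 were all unique, and 94.9% of those of H1f2 were.

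**Figure D1:**
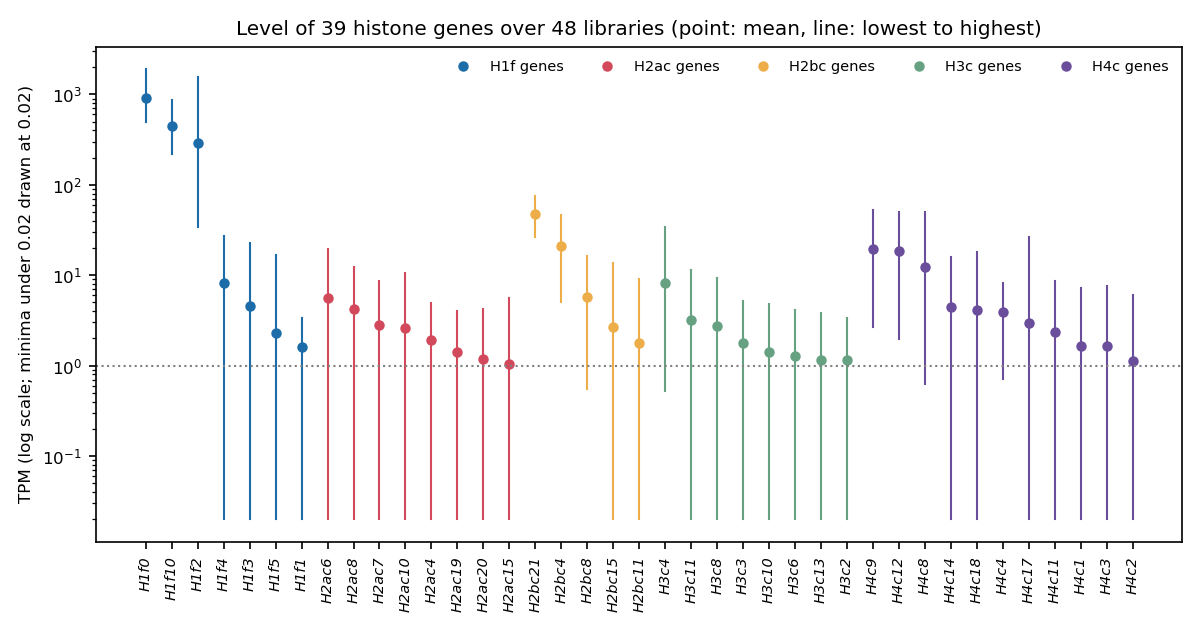
The vertical axis gives TPM on a log scale, and each point is the mean of 1 of the 39 tested genes over 48 libraries with a line from its lowest to its highest library (values under 0.02 drawn at 0.02). H1f0, H1f10 and H1f2 stand above all core histone genes, whose highest mean is 47.1 TPM for H2bc21.

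H1f0 encodes the linker histone H1.0, which accumulates in cells that have stopped dividing. At E15, H1f0 was at 1442 and 1295 TPM, and at DIV3 it was at 751, 667 and 546 with SC siRNA, 699, 650 and 601 with SC siRNA and BDNF, 796, 607, 644, 733 and 533 with paxillin siRNA, and 750, 490, 647 and 687 with paxillin siRNA and BDNF. The DIV5 levels of H1f0, in the same order, were 1023, 953, 843 and 1182, then 1157, 1054, 777 and 1501, then a lowest of 710, a median of 798 and a highest of 977, and then 811, 737, 922, 1256 and 1573. By DIV10, H1f0 was at 545, 1147 and 837 with SC siRNA, 572, 561 and 1350 after BDNF, 1885, 995, 956 and 1746 with paxillin siRNA, and 1114 and 977 with both agents. Both E15 libraries lay above all DIV3 libraries, and the groups at DIV5 and DIV10 overlapped each other. H1f10 encodes the linker histone H1.10, another member outside the clusters. At E15, H1f10 was at 860 and 343 TPM, and at DIV3 it was at 652, 605 and 287 with SC siRNA, 373, 432 and 216 with SC siRNA and BDNF, 628, 390, 315, 565 and 257 with paxillin siRNA, and 415, 245, 484 and 367 with paxillin siRNA and BDNF. At DIV5 the same groups had H1f10 at 386, 385, 404 and 371, then 712, 707, 369 and 756, then a lowest of 310, a median of 433 and a highest of 666, and then 539, 379, 673, 795 and 577. At DIV10 the level of H1f10 was 357, 295 and 456 with SC siRNA, 360, 370 and 280 after BDNF, 266, 271, 515 and 327 with paxillin siRNA, and 314 and 564 with both agents. No group of H1f10 was set apart from the others, and the 2 E15 libraries alone spanned most of its range.

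H1f2, H1f4 and H1f5 encode linker histones of the chromosome 13 cluster. At E15, H1f2 was at 76.1 and 34.4 TPM, and at DIV3 it was at 151, 129 and 80.96 with SC siRNA, 110, 104 and 35.3 with SC siRNA and BDNF, 92.8, 61.5, 78.999, 70.4 and 77.8 with paxillin siRNA, and 68.95, 44.1, 99.3 and 50.05 with paxillin siRNA and BDNF. H1f2 at DIV5, group by group, was at 521, 375, 202 and 332, then 467, 248, 151 and 397, then a lowest of 139, a median of 212 and a highest of 309, and then 204, 189, 343, 332 and 484. The level of H1f2 reached at DIV10 was 345, 335 and 531 with SC siRNA, 290, 347 and 296 after BDNF, 1576, 357, 509 and 1191 with paxillin siRNA, and 450 and 621 with both agents. Every DIV10 library of H1f2 lay above every DIV3 library, from 290 TPM against at most 151 TPM. At E15, H1f4 was at 3.49 and 1.77 TPM, and at DIV3 it was at 3.22, 2.48 and 5.75 with SC siRNA, 1.99, 0 and 3.41 with SC siRNA and BDNF, 2.72, 2.53, 3.598, 2.58 and 5.98 with paxillin siRNA, and 1.74, 2.04, 4.203 and 1.07 with paxillin siRNA and BDNF. Values of H1f4 at DIV5 in this order were 15.5, 13.6, 3.56 and 7.49, then 10.8, 9.72, 3.03 and 11.6, then a lowest of 3.86, a median of 4.69 and a highest of 7.36, and then 3.898, 6.38, 9.87, 6.46 and 8.302. In DIV10 libraries H1f4 stood at 16.8, 5.55 and 14.2 with SC siRNA, 17.1, 27.5 and 4.16 after BDNF, 27.4, 14.2, 22.4 and 9.09 with paxillin siRNA, and 19.98 and 24.9 with both agents. The lowest DIV10 values of H1f4 were those of culture 3, at 5.55 and 4.16 TPM, and the other DIV10 libraries lay above all DIV3 libraries. At E15, H1f5 was at 1.38 and 0.499 TPM, and at DIV3 it was at 0.705, 0 and 0.333 with SC siRNA, 0.653, 0.625 and 2.35 with SC siRNA and BDNF, 1.005, 0.832, 0.834, 0.363 and 1.04 with paxillin siRNA, and 1.43, 0, 1.13 and 0.351 with paxillin siRNA and BDNF. DIV5 libraries gave H1f5 levels of 5.81, 5.296, 4.14 and 2.68, then 3.66, 4.96, 0.373 and 2.78, then a lowest of 0, a median of 0.927 and a highest of 2.21, and then 0.548, 0.392, 1.67, 1.12 and 5.98. DIV10 values of H1f5 were 2.88, 2.73 and 1.995 with SC siRNA, 3.57, 4.29 and 1.37 after BDNF, 16.9, 2.46, 2.01 and 5.43 with paxillin siRNA, and 4.07 and 3.11 with both agents. The highest H1f5 value was 16.9 TPM, in culture 1 with paxillin siRNA at DIV10. Next came 5.98 TPM in culture 4 with paxillin siRNA and BDNF at DIV5, and 5.81 TPM in culture 1 with SC siRNA at DIV5.

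The H2ac genes encode histone H2A. At E15, H2ac6 was at 3.93 and 0.407 TPM, and at DIV3 it was at 4.02, 1.496 and 3.803 with SC siRNA, 2.66, 2.04 and 0.548 with SC siRNA and BDNF, 2.73, 1.36, 3.06, 2.37 and 2.83 with paxillin siRNA, and 0, 0, 2.46 and 0.573 with paxillin siRNA and BDNF. The DIV5 levels of H2ac6, in the same order, were 18.95, 7.63, 4.16 and 9.85, then 10.9, 6.36, 1.22 and 7.93, then a lowest of 1.85, a median of 3.16 and a highest of 10.8, and then 2.68, 2.56, 6.795, 3.05 and 5.64. By DIV10, H2ac6 was at 14.96, 2.79 and 19.5 with SC siRNA, 7.42, 6.46 and 3.34 after BDNF, 14.4, 16.1, 11.2 and 1.56 with paxillin siRNA, and 8.31 and 12.7 with both agents. The DIV10 values of H2ac6 reached 19.5 TPM, but culture 2 with paxillin siRNA was at 1.56 TPM, and culture 3 was at 2.79 TPM with SC siRNA and at 3.34 TPM with BDNF as well. At E15, H2ac8 was at 4.899 and 1.07 TPM, and at DIV3 it was at 8.03, 1.74 and 4.27 with SC siRNA, 1.86, 5.34 and 1.43 with SC siRNA and BDNF, 1.43, 0, 0.89, 5.69 and 6.41 with paxillin siRNA, and 4.07, 1.91, 1.07 and 3.503 with paxillin siRNA and BDNF. At DIV5 the same groups had H2ac8 at 6.202, 10.6, 0.907 and 5.25, then 6.63, 3.03, 1.59 and 8.89, then a lowest of 0.512, a median of 2.31 and a highest of 5.47, and then 3.12, 5.03, 5.93, 5.86 and 4.48. At DIV10 the level of H2ac8 was 7.46, 2.43 and 4.26 with SC siRNA, 12.5, 11.7 and 4.86 after BDNF, 4.42, 2.34, 3.27 and 2.73 with paxillin siRNA, and 3.38 and 6.09 with both agents. H2ac8 overlapped between all days. At E15, H2ac15 was at 2.04 and 3.33 TPM, and at DIV3 it was at 0, 0 and 0 with SC siRNA, 0.968, 2.78 and 0 with SC siRNA and BDNF, 0.993, 0.617, 0.309, 0 and 5.65 with paxillin siRNA, and 2.12, 0.497, 0 and 0 with paxillin siRNA and BDNF. H2ac15 at DIV5, group by group, was at 1.08, 1.39, 2.83 and 0.497, then 0.493, 3.15, 1.11 and 1.03, then a lowest of 0, a median of 0.593 and a highest of 1.95, and then 2.85, 0.582, 0.823, 1.11 and 1.398. The level of H2ac15 reached at DIV10 was 1.16, 1.01 and 0.493 with SC siRNA, 0.963, 0.489 and 0 after BDNF, 0.354, 0, 1.28 and 0.474 with paxillin siRNA, and 1.01 and 0.576 with both agents. H2ac15 was listed at 0 in all 3 DIV3 SC libraries and was above 2 TPM in both E15 libraries.

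The H2bc genes encode histone H2B, and H2bc21 and H2bc4 are the most abundant of them. At E15, H2bc21 was at 53.4 and 60.2 TPM, and at DIV3 it was at 34.2, 27.8 and 43.2 with SC siRNA, 26.8, 28.1 and 38.96 with SC siRNA and BDNF, 41.6, 40.8, 42.3, 36.9 and 49.5 with paxillin siRNA, and 31.2, 40.03, 37.7 and 32.7 with paxillin siRNA and BDNF. Values of H2bc21 at DIV5 in this order were 46.8, 47.4, 50.1 and 62.5, then 50.3, 58.3, 65.9 and 64.3, then a lowest of 43.3, a median of 49.1 and a highest of 74.6, and then 50.1, 50.5, 48.1, 57.9 and 60.8. In DIV10 libraries H2bc21 stood at 31.6, 50.6 and 39.6 with SC siRNA, 27.8, 27.9 and 67.5 after BDNF, 48.5, 67.3, 46.2 and 40.5 with paxillin siRNA, and 64.1 and 44.9 with both agents. H2bc21 kept within 26.8 and 74.6 TPM over the 48 libraries. At E15, H2bc4 was at 5.11 and 5.11 TPM, and at DIV3 it was at 20.99, 18.7 and 7.301 with SC siRNA, 15.9, 14.1 and 5.92 with SC siRNA and BDNF, 11.7, 13.2, 15.03, 7.66 and 6.84 with paxillin siRNA, and 9.15, 8.87, 13.05 and 5.92 with paxillin siRNA and BDNF. DIV5 libraries gave H2bc4 levels of 29.4, 24.5, 10.3 and 26.8, then 33.8, 30.4, 15.96 and 27.95, then a lowest of 10.8, a median of 15.6 and a highest of 27.3, and then 17.3, 22.7, 32.8, 25.1 and 19.5. DIV10 values of H2bc4 were 33.7, 14.01 and 30.9 with SC siRNA, 29.6, 38.3 and 16.03 after BDNF, 42.5, 37.8, 41.9 and 38.8 with paxillin siRNA, and 37.6 and 46.4 with both agents. H2bc4 was lowest at E15, and at DIV10 the 4 libraries with paxillin siRNA alone lay above the 3 with SC siRNA alone, a difference of 0.69 ± 0.37 on the log2 scale that did not pass the test (adjusted p = 0.233, limma). At E15, H2bc15 was at 1.14 and 2.49 TPM, and at DIV3 it was at 1.76, 0 and 0 with SC siRNA, 0.543, 3.12 and 0 with SC siRNA and BDNF, 0.557, 0, 1.39, 0 and 0 with paxillin siRNA, and 0.476, 0, 0 and 0 with paxillin siRNA and BDNF. The DIV5 levels of H2bc15, in the same order, were 3.02, 3.11, 0.53 and 2.79, then 4.43, 3.54, 1.24 and 7.502, then a lowest of 1.05, a median of 1.65 and a highest of 2.99, and then 0.456, 3.26, 3.69, 1.24 and 1.05. By DIV10, H2bc15 was at 9.58, 1.705 and 2.21 with SC siRNA, 6.48, 9.32 and 3.41 after BDNF, 1.98, 8.87, 3.34 and 1.59 with paxillin siRNA, and 13.5 and 9.05 with both agents. H2bc15 was listed at 0 in 9 of the 15 DIV3 libraries and in no DIV10 library.

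The H3c genes encode histone H3. At E15, H3c4 was at 1.63 and 1.18 TPM, and at DIV3 it was at 3.33, 3.37 and 5.25 with SC siRNA, 8.23, 7.89 and 0.529 with SC siRNA and BDNF, 6.86, 1.97, 1.97, 4.58 and 8.74 with paxillin siRNA, and 2.71, 1.59, 7.12 and 1.11 with paxillin siRNA and BDNF. At DIV5 the same groups had H3c4 at 14.9, 15.2, 8.04 and 8.46, then 9.45, 11.7, 1.76 and 14.8, then a lowest of 2.59, a median of 3.44 and a highest of 8.82, and then 4.76, 4.33, 9.19, 5.31 and 3.97. At DIV10 the level of H3c4 was 24.8, 1.08 and 12.1 with SC siRNA, 33.3, 34.3 and 1.08 after BDNF, 7.15, 11.005, 19.4 and 9.07 with paxillin siRNA, and 19.3 and 16.5 with both agents. H3c4 was at 1.08 TPM in both DIV10 SC libraries of culture 3 and at 12.1 to 34.3 TPM in the other DIV10 SC libraries. At E15, H3c11 was at 2.26 and 2.05 TPM, and at DIV3 it was at 2.32, 2.01 and 0 with SC siRNA, 3.22, 0 and 0.553 with SC siRNA and BDNF, 2.75, 3.42, 0.343, 1.79 and 1.71 with paxillin siRNA, and 4.24, 2.76, 3.096 and 1.16 with paxillin siRNA and BDNF. H3c11 at DIV5, group by group, was at 6.57, 2.56, 2.097 and 1.66, then 7.12, 4.67, 2.45 and 3.43, then a lowest of 0.591, a median of 1.797 and a highest of 4.17, and then 1.35, 3.23, 5.48, 4.31 and 2.59. The level of H3c11 reached at DIV10 was 4.74, 1.69 and 2.74 with SC siRNA, 4.81, 11.4 and 1.12 after BDNF, 7.06, 2.702, 5.19 and 3.16 with paxillin siRNA, and 6.14 and 7.67 with both agents. The days overlapped for H3c11.

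The H4c genes all encode the same histone H4 protein or a near copy of it. At E15, H4c9 was at 19.01 and 12.3 TPM, and at DIV3 it was at 19.5, 28.9 and 12.5 with SC siRNA, 18.03, 18.5 and 11.3 with SC siRNA and BDNF, 19.2, 11.5, 9.05, 9.32 and 5.47 with paxillin siRNA, and 15.2, 8.61, 20.04 and 13.2 with paxillin siRNA and BDNF. Values of H4c9 at DIV5 in this order were 22.9, 23.97, 8.17 and 23.8, then 38.7, 34.3, 12.5 and 36.3, then a lowest of 4.97, a median of 14.05 and a highest of 15.7, and then 14.1, 17.8, 20.8, 11.8 and 24.2. In DIV10 libraries H4c9 stood at 35.1, 4.05 and 28.9 with SC siRNA, 33.3, 52.03 and 2.69 after BDNF, 30.1, 30.8, 28.3 and 15.1 with paxillin siRNA, and 22.8 and 29.9 with both agents. Culture 3 was the lowest library of H4c9 in each SC group at each day. At E15, H4c12 was at 4.68 and 3.39 TPM, and at DIV3 it was at 14.4, 6.54 and 16.8 with SC siRNA, 10.2, 8.51 and 1.958 with SC siRNA and BDNF, 13.02, 3.23, 9.72, 7.06 and 18.9 with paxillin siRNA, and 9.46, 5.22, 5.12 and 5.46 with paxillin siRNA and BDNF. DIV5 libraries gave H4c12 levels of 42.3, 31.5, 17.3 and 20.9, then 40.1, 17.9, 13.8 and 30.4, then a lowest of 8.21, a median of 9.91 and a highest of 17.2, and then 13.9, 21.4, 17.3, 29.1 and 25.7. DIV10 values of H4c12 were 36.2, 7.31 and 23.9 with SC siRNA, 30.9, 33.96 and 2.66 after BDNF, 44.5, 33.5, 44.6 and 31.7 with paxillin siRNA, and 49.5 and 24.2 with both agents. H4c12 was at 24.2 TPM or above in all 6 DIV10 libraries with paxillin siRNA and at most 18.9 TPM at DIV3. At E15, H4c8 was at 0.629 and 0.911 TPM, and at DIV3 it was at 8.37, 10.1 and 14.6 with SC siRNA, 7.75, 1.14 and 1.84 with SC siRNA and BDNF, 15.3, 8.36, 4.19, 7.304 and 7.598 with paxillin siRNA, and 8.37, 7.97, 4.13 and 3.21 with paxillin siRNA and BDNF. The DIV5 levels of H4c8, in the same order, were 7.96, 14.2, 3.49 and 5.51, then 31.6, 14.9, 9.54 and 4.44, then a lowest of 3.94, a median of 10.2 and a highest of 10.9, and then 9.52, 17.2, 31.5, 35.5 and 6.895. By DIV10, H4c8 was at 22.98, 9.99 and 23.7 with SC siRNA, 16.02, 49.4 and 1.87 after BDNF, 20.1, 11.3, 27.8 and 9.93 with paxillin siRNA, and 19.2 and 24.9 with both agents. H4c8 was below 1 TPM at E15 and above 1 TPM in every culture library. At E15, H4c1 was at 0 and 1.74 TPM, and at DIV3 it was at 1.85, 1.07 and 2.91 with SC siRNA, 0, 0 and 0 with SC siRNA and BDNF, 1.75, 0, 1.46, 0.635 and 0.605 with paxillin siRNA, and 0.5, 3.52, 0 and 0.614 with paxillin siRNA and BDNF. At DIV5 the same groups had H4c1 at 0, 1.63, 0 and 1.17, then 0.581, 1.24, 0 and 0, then a lowest of 0, a median of 1.29 and a highest of 2.51, and then 2.87, 0.685, 1.45, 0.653 and 0. At DIV10 the level of H4c1 was 4.58, 1.79 and 2.905 with SC siRNA, 2.84, 6.33 and 2.39 after BDNF, 2.08, 7.17, 3.51 and 2.79 with paxillin siRNA, and 2.37 and 6.11 with both agents. H4c1 was listed at 0 in all 3 DIV3 libraries with SC siRNA and BDNF and in no DIV10 library. At E15, H4c2 was at 3.65 and 0.881 TPM, and at DIV3 it was at 1.87, 1.08 and 1.18 with SC siRNA, 1.73, 0 and 1.78 with SC siRNA and BDNF, 1.77, 2.204, 1.47, 1.93 and 4.28 with paxillin siRNA, and 0.505, 1.19, 5.98 and 0.621 with paxillin siRNA and BDNF. H4c2 at DIV5, group by group, was at 0, 0, 1.13 and 0, then 2.35, 2.504, 0.659 and 1.84, then a lowest of 0, a median of 0.568 and a highest of 0.746, and then 0.484, 0.693, 1.47, 0.661 and 1.11. The level of H4c2 reached at DIV10 was 0.925, 0 and 1.76 with SC siRNA, 1.72, 0.582 and 0 after BDNF, 0, 0, 0 and 0.565 with paxillin siRNA, and 0 and 1.37 with both agents. H4c2 was listed at 0 in 3 of the 4 DIV10 libraries with paxillin siRNA and in none of the 5 such libraries at DIV3.

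**Figure D2:**
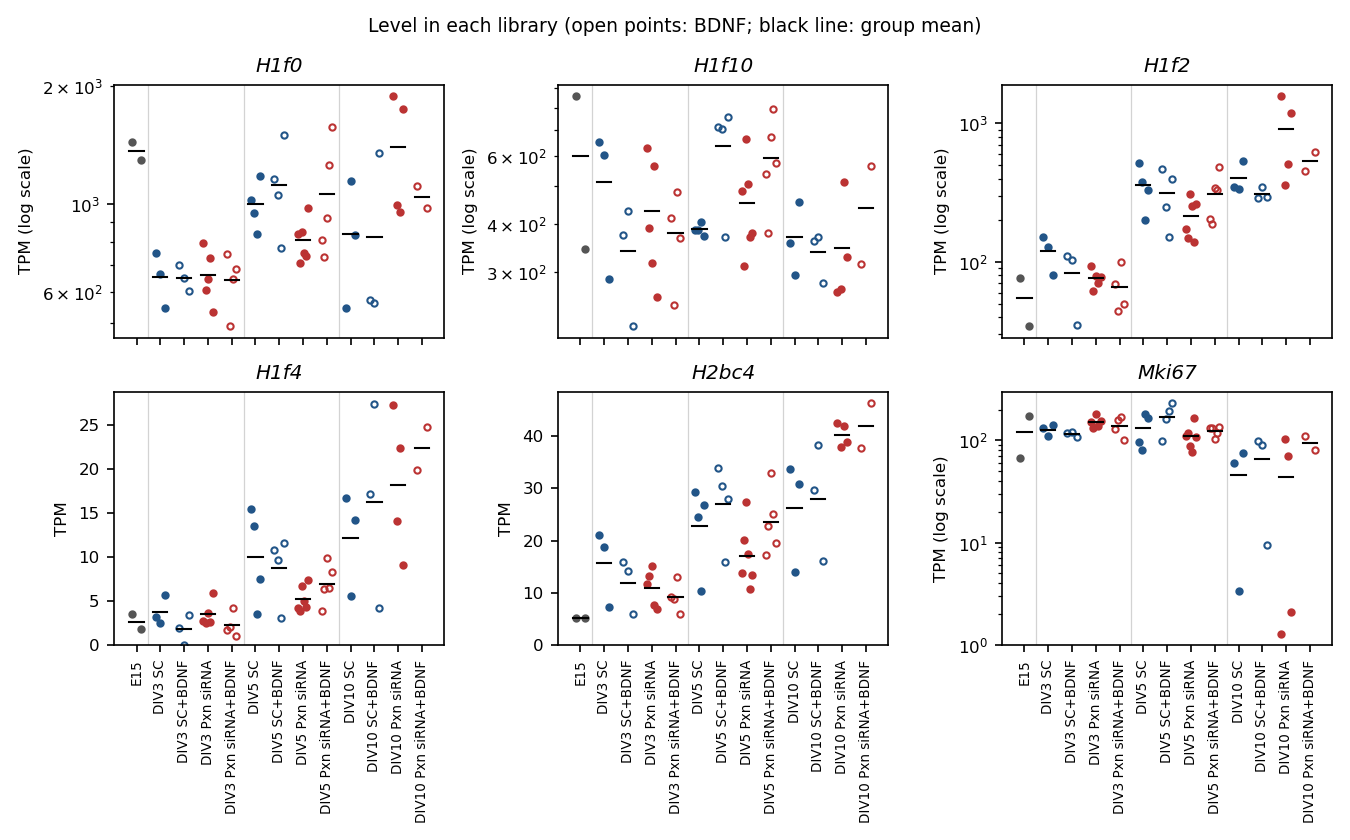
The vertical axes give TPM (log scale except for H1f4 and H2bc4), each point is 1 library, open points had BDNF, red marks paxillin siRNA, and black lines are group means. H1f2 lies at 35.3 to 151 TPM at DIV3 and at 290 to 1576 TPM at DIV10, while Mki67 splits the DIV10 libraries into 4 below 10 TPM and 8 from 59.5 to 111 TPM.

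Mki67, a marker of dividing cells, showed that the DIV10 libraries were of 2 kinds. At E15, Mki67 was at 67.6 and 175 TPM, and at DIV3 it was at 133, 110 and 140 with SC siRNA, 117, 120 and 107 with SC siRNA and BDNF, 151, 132, 180, 137 and 156 with paxillin siRNA, and 129, 160, 170 and 101 with paxillin siRNA and BDNF. Values of Mki67 at DIV5 in this order were 96.9, 80.2, 180 and 168, then 97.7, 160, 192 and 230, then a lowest of 76.9, a median of 109 and a highest of 164, and then 132, 131, 103, 119.4 and 136. In DIV10 libraries Mki67 stood at 59.5, 3.34 and 74.8 with SC siRNA, 98.4, 90.4 and 9.51 after BDNF, 1.28, 103, 70.3 and 2.101 with paxillin siRNA, and 111 and 79.9 with both agents. The 4 libraries below 10 TPM were paxillin siRNA cultures 1 and 2 and the culture 3 libraries of both SC groups. They also had less of the astrocyte marker Gfap (455 to 707 TPM against 1724 to 5459 TPM in the other 8). Their H1f0 was 1147 to 1885 TPM, against 545 to 1114 TPM in the 8 others. Beside H1f0, H1f10 and H1f2, the remaining members summed to 153 and 139 TPM in the 2 culture 3 libraries and to 232 and 375 TPM in the 2 with paxillin siRNA, against 302 to 448 TPM in the 8 others. These libraries are set apart by a measured value, so the differences carry no test.

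Change from E15 to DIV3 in SC cultures touched few members. H4c8 rose by 2.73 ± 0.76 on the log2(TPM + 1) scale (SE, adjusted p = 0.022 by limma), from 0.770 ± 0.200 TPM (SD, n = 2) to 11.01 ± 3.22 TPM (SD, n = 3). H1f0 fell by 1.07 ± 0.32 (adjusted p = 0.0344, limma), from 1368 ± 104 to 654 ± 103 TPM, and H2ac15 fell (adjusted p = 0.0407, limma) from 2.04 and 3.33 TPM to a listed 0 in all 3 libraries. In each of these the groups did not overlap. H2ac15 averaged 1.05 TPM over the 48 libraries, near the limit for testing, and E15 was its highest group, so its fall is a description. Calls here are adjusted p below 0.05 in one limma fit over 14250 genes, and 1 of the 39 members was called higher, against 4.63% of all genes, and 2 were called lower, against 3.48%. The median change was -0.05 for the members and -0.01 for all genes. With the E15 libraries left out in turn, no member was called, and without DIV3 culture 2 or 3 the count was 1. For these and later counts from alternative fits, the share of all genes called is not given, so they describe the processing only.

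From DIV3 to DIV5 in SC cultures, H1f2 rose by 1.53 ± 0.43 (adjusted p = 0.0189, limma), from a mean of 120 to 358 TPM. H1f5 was higher by 2.02 ± 0.50, at a mean of 4.48 against 0.346 TPM, a difference that shares its DIV5 libraries with the comparison on which the group was proposed. These were the 2 members called higher, against 7.99% of all genes, and 0 were called lower, against 1.48%, with 1 lower at an unadjusted p under 0.05. The members' median was 0.55 and that of all genes 0.11. A positive value was seen for 32 of 39 members. This and the count at an unadjusted p are descriptions, because the matching shares of all genes are not given. The count was 6 without DIV5 culture 3, 1 without DIV5 culture 1 or 2 or DIV3 culture 3, and 0 without DIV3 culture 2, and with the series of library numbers as a term it was 5. All these DIV5 libraries were of the same series, whereas at DIV3 only that of culture 3 was, so series and day are partly confounded. The counts of these alternative fits are descriptions. From DIV5 to DIV10, H4c1 rose by 1.35 ± 0.49 (adjusted p = 0.0393, limma), from 0.701 to 3.09 TPM. It was the only member called higher, against 5.75% of all genes, while 0 members were called lower, also at an unadjusted p under 0.05, against 19.2%. The median was -0.09 for the members and -0.16 for all genes. This call was lost without DIV10 culture 1 or 6, without DIV5 culture 1 or 3, and with a pseudocount of 0.1, whereas 2 members were called without DIV10 culture 3. The mean of H4c1 over the 48 libraries, 1.66 TPM, was raised by the DIV10 libraries, so its call is a description.

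Over the whole period from DIV3 to DIV10, a comparison added after the data were seen, more members rose. H1f2, H1f4 and H2bc15 were called higher in each of the 4 arms. The call of H1f2 held in every alternative run, whereas in the SC arm that of H1f4 was lost in 8 of 14 alternatives and that of H2bc15 in 4 of 14, among them those without DIV10 culture 1 or DIV3 culture 2 for both genes. H1f2 rose by 1.75 ± 0.46 (SE) with SC siRNA (adjusted p = 0.00322), 2.05 ± 0.46 with SC siRNA and BDNF (0.00055), 3.32 ± 0.38 with paxillin siRNA (4.54e-09) and 3.06 ± 0.49 with both agents (7.36e-06, all limma). In TPM this was from 120 ± 35.9 to 404 ± 111 (SD, n = 3 and 3) with SC siRNA and from 76.3 ± 11.6 to 908 ± 574 (SD, n = 5 and 4) with paxillin siRNA. H1f4 rose by 1.38 ± 0.53 (adjusted p = 0.0386), 2.55 ± 0.53 (0.000213), 2.05 ± 0.43 (0.000147) and 2.92 ± 0.56 (0.000105, limma) in the same arms. H2bc15 rose by 1.69 ± 0.55 (adjusted p = 0.0156), 1.91 ± 0.55 (0.00536), 1.71 ± 0.45 (0.00158) and 3.45 ± 0.58 (1.66e-05, limma), from means of at most 1.22 TPM at DIV3. Without the 4 DIV10 libraries of low Mki67, in the arms SC, SC with BDNF and paxillin siRNA, H1f2 rose by 1.87, 2.08 and 2.48, H1f4 by 1.83, 3.27 and 2.12, and H2bc15 by 2.06, 2.25 and 2.33, all called by limma. The 2 paxillin siRNA libraries left at DIV10 had H1f2 at 357 and 509 TPM. The groups overlapped for H1f4 and H2bc15 in the SC arm without BDNF. The arms were not tested against each other, and the SC and paxillin siRNA arms share neither libraries nor all cultures.

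In the SC arm 4 of the 39 members (10.3%) were called higher, against 16.1% of all genes, and 0 were called lower, against 19.1%. With SC siRNA and BDNF 10 (25.6%) were called higher, against 17.9%, and 0 lower, against 22.4%. With paxillin siRNA 12 (30.8%) were called higher, against 21.9%, and 1 lower, against 32.4%. With paxillin siRNA and BDNF 15 (38.5%) were called higher, against 16.2%, and 0 lower, against 16.5%. At an unadjusted p under 0.05, 0 members were lower in the 3 arms without a lower call. In the order SC, SC with BDNF, paxillin siRNA, and paxillin siRNA with BDNF, the members' medians were 0.53, 0.89, 0.90 and 1.14, and those of all genes were -0.04, -0.07, -0.11 and -0.07. Positive in all 4 arms were 26 of the 39 members, and 20 were called higher in none. The matching shares of all genes are not given, so these counts are descriptions. H1f3, H1f5, H2bc4, H2bc8 and H4c1 were called higher in 3 arms. H4c2 was the single lower call, at -1.52 ± 0.38 with paxillin siRNA (adjusted p = 0.00102, limma), from 2.33 to 0.141 TPM. Its mean over the 48 libraries was 1.13 TPM, near the limit for testing, and its higher DIV3 libraries helped it pass. The DIV10 libraries helped H4c1 in the same way (mean 1.66 TPM), so these calls of H4c2 and H4c1 are descriptions. H1f10 and H2bc21 were called in no arm, with values of -0.41 to 0.20 and 0.20 to 0.59.

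By family, the H1f genes had 3, 4, 5 and 4 of 7 called higher in SC, SC with BDNF, paxillin siRNA, and paxillin siRNA with BDNF, and the H2bc genes had 1, 3, 3 and 4 of 5. The H2ac genes had 0, 0, 1 and 2 of 8, the H3c genes had 0, 1, 0 and 1 of 8, and the H4c genes had 0, 2, 3 and 4 of 11. Members with a long model after the stem-loop had a median change of 0.81, 1.38, 1.22 and 1.3 in that order. Those with a short model had 0.43, 1.00, 0.54 and 1.25, those without a loop had 0.29, 0.25, 0.45 and 0.65, and those with a coding-only model had 0.84, 0.89, 0.92 and 1.43. Between 2 and 5 of the 10 members with a long model were called higher, between 0 and 5 of the 12 with a short one, between 0 and 3 of the 10 without a loop, and 2 or 3 of the 7 coding-only ones. Of all genes, 16.1%, 17.9%, 21.9% and 16.2% were called higher in the same order of arms. Families and model classes were not tested against these shares or each other.

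Counts without 1 library ranged from 1 to 7 for SC, from 5 to 17 for SC with BDNF, from 11 to 15 for paxillin siRNA and from 6 to 13 for paxillin siRNA with BDNF. The SC count was 1 without DIV10 culture 1 or DIV3 culture 2, 2 without DIV3 culture 3 and 7 without DIV10 culture 3, and the SC count with BDNF was 17 without DIV10 culture 3, 6 and 5 without DIV10 cultures 1 and 2, and 5 without DIV3 culture 3. With paxillin siRNA and BDNF, leaving out DIV10 culture 10 or 11 left 8 or 6 calls. Without the 4 DIV10 libraries below 10 TPM of Mki67, the counts were 10, 20 and 14 (13 higher) for SC, SC with BDNF and paxillin siRNA. With the culture number as a block, which pairs libraries in the SC comparison with BDNF, that comparison called 12 members. The shares of all genes called in these alternative fits are not given. The counts of this paragraph are therefore not read as a result about the members.

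**Figure D3:**
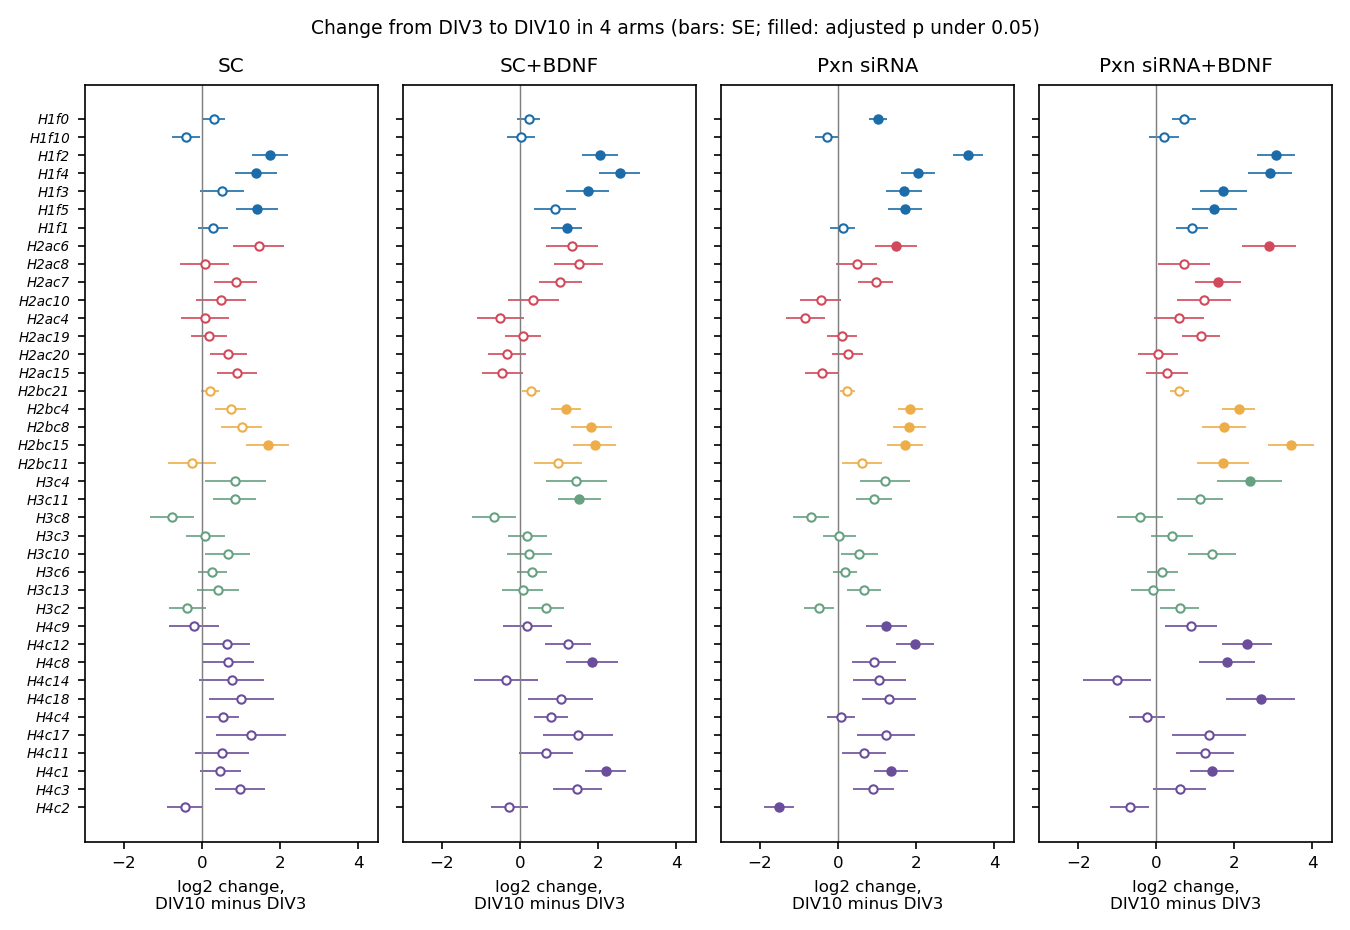
The horizontal axes give the log2 change from DIV3 to DIV10 for the 39 tested genes in 4 arms, with bars for the SE and filled points for an adjusted p below 0.05. H1f2, H1f4 and H2bc15 are filled in all 4 arms, and H4c2 is the only filled point below 0, at -1.52 with paxillin siRNA.

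Other gene lists were read over the same interval, without a test of their difference from the histone genes or from all genes. Rose and fell in the counts here mean called higher and lower. In SC, SC with BDNF, paxillin siRNA, and paxillin siRNA with BDNF, 19.1%, 22.4%, 32.4% and 16.5% of all genes fell. In the same order, 16.1%, 17.9%, 21.9% and 16.2% rose. Of 16 S phase and DNA replication genes tested, 0 rose in any arm and 12, 7, 13 and 0 fell in SC, SC with BDNF, paxillin siRNA, and paxillin siRNA with BDNF. Of 12 G2 and mitosis genes, 10, 2, 12 and 0 fell and 0 rose. Of 9 variant histone genes, H2ax and Cenpa among them, listed here as replication-independent without a check of each, 7, 4, 6 and 2 fell and 0, 0, 0 and 1 rose. Of 12 histone chaperone genes, 7, 5, 6 and 5 fell and 0 rose, and of 13 genes for histone mRNA processing and transcription, 5, 5, 6 and 4 fell and 1 rose in each arm. The cell type markers moved as well: 6, 6, 8 and 8 of 9 astrocyte markers and 4, 5, 4 and 4 of 5 microglial markers rose and 0 fell. Of 7 oligodendrocyte lineage markers 4, 4, 3 and 7 rose and 0 fell, of 8 neuronal markers 2, 2, 1 and 1 rose and 3, 4, 5 and 1 fell, and of 8 progenitor markers 0, 2, 3 and 4 rose and 1, 1, 4 and 2 fell. In the SC arm the summed astrocyte markers went from 326 to 954 TPM at DIV3 to 1687 to 8659 TPM at DIV10, the neuronal ones from 2894 to 3986 TPM to 957 to 1692 TPM, and the microglial ones from 25.9 to 40.1 TPM to 129 to 717 TPM. The oligodendrocyte markers of that arm went from 899 to 1759 TPM to 1450 to 4869 TPM, and the progenitor markers from 1207 to 2143 TPM to 960 to 2974 TPM. Without the 4 DIV10 libraries of low Mki67, the genes that fell in SC, SC with BDNF and paxillin siRNA were 11, 7 and 6 of 16 for S phase, 10, 2 and 7 of 12 for G2 and mitosis, 6, 4 and 2 of 9 for replication-independent histones, 7, 7 and 6 of 12 for chaperones, and 7, 8 and 6 of 13 for histone mRNA processing. The markers that rose were then 8, 8 and 9 of 9 for astrocytes, 7 of 7 in each arm for oligodendrocytes, 5, 5 and 4 of 5 for microglia, and 3, 2 and 4 of 8 for progenitors, and 3, 5 and 3 of 8 neuronal markers fell. For the fit without these libraries the shares of all genes are not given, so its counts are descriptions. The part of the change in cell type markers in the change of the histone genes was not tested.

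Pxn itself, the gene targeted by the siRNA, was the check of the treatment. At E15, Pxn was at 9.203 and 7.998 TPM, and at DIV3 it was at 9.16, 9.65 and 11.7 with SC siRNA, 8.05, 12.3 and 7.98 with SC siRNA and BDNF, 8.02, 8.38, 7.79, 9.49 and 11.4 with paxillin siRNA, and 10.3, 10.01, 10.1 and 11.8 with paxillin siRNA and BDNF. DIV5 libraries gave Pxn levels of 13.1, 19.9, 12.4 and 16.4, then 14.3, 17.9, 10.04 and 18.99, then a lowest of 8.43, a median of 9.11 and a highest of 9.83, and then 8.74, 9.43, 10.3, 13.8 and 12.8. DIV10 values of Pxn were 8.99, 19.9 and 9.93 with SC siRNA, 9.82, 11.6 and 15.9 after BDNF, 18.8, 13.2, 11.5 and 13.4 with paxillin siRNA, and 12.5 and 10.9 with both agents. At DIV5 without BDNF the groups did not overlap, and Pxn was lower with paxillin siRNA by 0.67 ± 0.18 on the log2 scale (adjusted p = 0.0186, limma). The values of Pxn were -0.16 at DIV3 and 0.19 at DIV10, neither passing the test (adjusted p = 1 and 0.609), and with BDNF they were 0.17 at DIV3, -0.42 at DIV5 and -0.06 at DIV10 (adjusted p = 1, 0.207 and 0.977, limma). A lower Pxn RNA was thus detected only at DIV5 without BDNF among these 6 comparisons, and directions in the other 5 rest on the labels.

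Few histone genes passed the test between paxillin and SC siRNA. At DIV5 without BDNF, H1f5 averaged 0.91 TPM in the paxillin siRNA libraries and 4.48 TPM in the SC ones, the groups did not overlap, and the log2 difference was -1.61 ± 0.43. This is the value on which the group was proposed. It was the 1 member past the threshold, against 6.18% of all genes, and the members' median was -0.48 against -0.08 for all genes, from which nothing is read. With the culture number as a block, which pairs these libraries, the differences of H2bc4 (-0.56), H2ac6 (-1.20) and H2bc11 (-1.38) passed as well, which is also a description. Without paxillin siRNA culture 10 or 2 or SC culture 1 or 2 no member passed, and without SC culture 3 there were 2. The 4 SC libraries at DIV5 were all of 1 series of library numbers, which held 2 of the 6 paxillin siRNA libraries, so series and siRNA are partly confounded. With the series as a term, H2bc11 (-1.83), H2bc4 (-0.92), H3c4 (-1.96) and H4c12 (-1.35) passed beside H1f5. The astrocyte markers of these libraries summed to 1149 to 2060 TPM in the paxillin siRNA libraries and to 1407 to 8688 TPM in the SC ones, and their part in the difference was not tested.

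At the other days 0 of 39 members passed, namely at DIV3 against 0% of all genes, at DIV10 against 2.58%, at DIV3 with BDNF against 0%, at DIV5 with BDNF against 0.596% and at DIV10 with BDNF against 0.0211%. At an unadjusted p under 0.05 the members were 1, 2, 1, 2 and 2 in that order, a description, because the matching shares of all genes are not given. At DIV10, H1f0 was 0.72 ± 0.27 higher (adjusted p = 0.0996) and H1f2 was 0.95 ± 0.43 higher (adjusted p = 0.165, limma) with paxillin siRNA, both led by cultures 1 and 2. Leaving out cultures 10 and 11, which had paxillin siRNA libraries only, gave 5 calls at DIV10, with H1f0, H1f2, H1f3 and H1f5 higher and H2ac4 lower. That fit kept paxillin siRNA cultures 1 and 2, both of low Mki67, while of the SC libraries only that of culture 3 was low. Leaving out the 4 libraries of low Mki67 gave 0. Leaving out paxillin siRNA culture 10 gave 2 calls at DIV10, and leaving out paxillin siRNA culture 11 or SC culture 3 gave 1. The medians of the members were -0.10, -0.07, 0.02, -0.22 and 0.33 in the order above, and those of all genes 0.01, -0.06, -0.02, -0.10 and 0.03. The DIV10 libraries came from several series of library numbers, and with the series as a term H1f0 (0.98) and H2bc21 (0.61) were called higher and H2ac4 (-1.74) lower. For these alternative fits the shares of all genes called are not given, so their calls are descriptions.

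BDNF, a growth factor for neurons, changed no member past the threshold at any day. In SC cultures 0 of 39 members were called at DIV3, DIV5 and DIV10, against 1.21%, 0.0491% and 0% of all genes, and in paxillin siRNA cultures 0 were called against 2.14%, 0.014% and 0.014%. At an unadjusted p under 0.05 there were 3, 5 and 0 members in SC cultures and 2, 2 and 1 in paxillin siRNA cultures. These counts are descriptions, because the matching shares of all genes are not given. Without culture 10 of the DIV10 libraries with paxillin siRNA alone, 1 member was called there. The member with the smallest p in SC cultures at DIV3 was H4c1, listed at 0 in the 3 libraries with BDNF and at 1.07 to 2.91 TPM without it (adjusted p = 0.192, limma). At DIV5 it was H4c4, another histone H4 gene (-1.19 ± 0.37, adjusted p = 0.274, limma). In SC cultures the members' medians were -0.32, -0.03 and -0.09, and in paxillin siRNA cultures they were -0.24, 0.42 and 0.28, beside -0.01, -0.01 and -0.002 and beside -0.02, -0.01 and 0.09 for all genes.

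No relation of a single histone gene to Mki67 within a day passed the adjusted test. The summed TPM of the 67 members had a Pearson r with Mki67 (both as log2(TPM + 1)) of -0.08 at DIV3 (Spearman rho -0.11, n = 15), -0.004 at DIV5 (rho -0.06, n = 19) and 0.01 in the 8 DIV10 libraries of at least 10 TPM of Mki67 (rho -0.05). Without the 2 libraries farthest from the median of Mki67, r was -0.08, -0.15 and -0.74, so the DIV10 value rests on those libraries. The libraries of a day share cultures, and these values are descriptions. Without H1f0, H1f10 and H1f2, r was 0.41, -0.12 and -0.03, and leaving out cultures 10 and 11 made it 0.76 at DIV3 (n = 11) and -0.13 at DIV5 (n = 15). For all 67 members it was then 0.19 at DIV3 and 0.004 at DIV5. In deviations from the group means, r at DIV3, DIV5 and DIV10 was 0.52, -0.57 and -0.56 without H1f0, H1f10 and H1f2. For all 67 members it was -0.16, -0.32 and -0.26. For single members, 117 relations were tested by permutation (100000 resamples, or all 40320 orders at DIV10), and 0 passed after Benjamini-Hochberg adjustment, with 3, 4 and 2 at an unadjusted p under 0.05. The smallest adjusted permutation p was 0.269, for H2bc21 at DIV3 (r = 0.64, rho = 0.68) and DIV5 (r = 0.64, rho = 0.63), for H4c14 at DIV5 (r = -0.57, rho = -0.60), and for H3c8 (r = -0.89, rho = -0.83) and H2ac4 (r = -0.82, rho = -0.79) at DIV10. Without the 2 libraries farthest from the median of Mki67, r was 0.64 and 0.53 for H2bc21, -0.56 for H4c14, -0.77 for H3c8 and -0.69 for H2ac4. The r of the 39 members was positive for 27 at DIV3, 12 at DIV5 and 15 at DIV10, and the matching shares of all genes are not given.

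**Figure D4:**
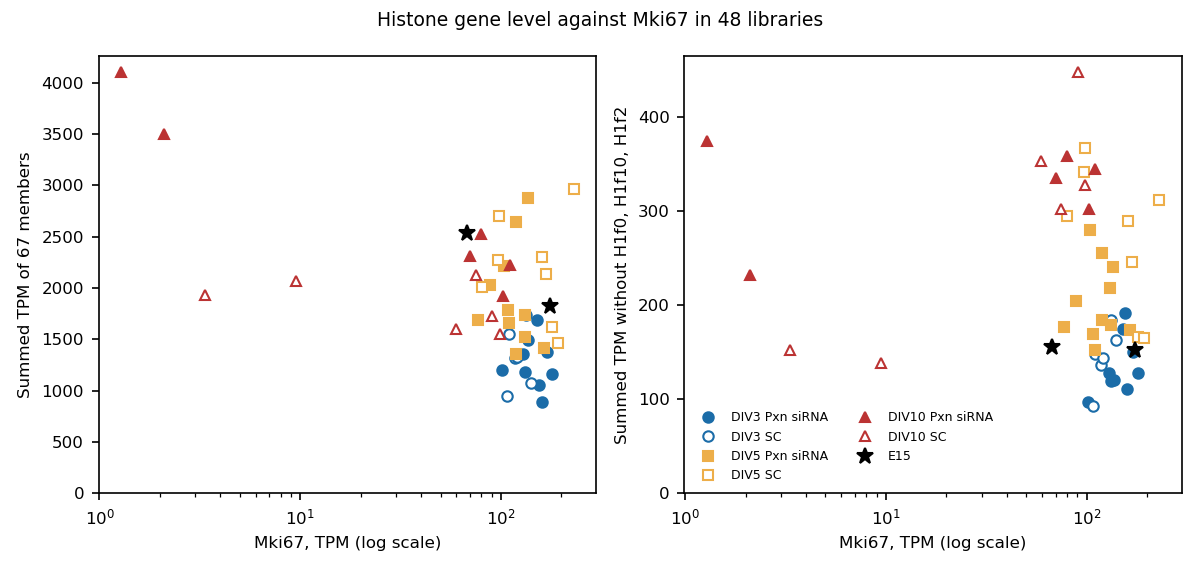
The horizontal axes give Mki67 in TPM on a log scale and the vertical axes the summed TPM of the 67 members (left) and the sum without H1f0, H1f10 and H1f2 (right), with 1 point per library, filled for paxillin siRNA and starred for E15. The 4 DIV10 libraries at 1.28 to 9.51 TPM of Mki67 lie apart on the left, and the 2 of culture 3 have the lowest right-hand sums of the DIV10 libraries, 153 and 139 TPM.

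In hippocampus, long reads were counted per transcript, with 3162777 to 5687908 counts per library, and cDNA below 500 bases had been removed, which bears on short mRNAs. At least 1 count fell on 38 of the 67 members and none on 29, and 9 of the 74 transcripts of the members passed the filter and were tested. H1f0 had 816 to 3570 counts per library and was above H2bc4 in all libraries but the 2 numbered 2 at P21. H2bc4 had 641, 691, 571 and 457 counts at P10, 880, 1410, 787 and 756 at P15, and 1016, 1823, 631 and 1752 at P21 (2 control, then 2 S119A libraries). H4c8 had 5, 8, 6 and 7 counts at P10, 9, 16, 5 and 4 at P15, and 18, 41, 20 and 32 at P21, so every P21 library lay above every earlier one. H2bc21 had 26, 20, 26 and 21 counts at P10, 28, 55, 35 and 39 at P15, and 54, 29, 37 and 69 at P21.

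From P10 to P21, H4c8 rose by 2.49 (log2, adjusted p = 0.00581 by edgeR), H2bc4 by 1.56 (adjusted p = 0.0234) and H2bc21 by 1.33 (adjusted p = 0.0244). These were 3 of 9 member transcripts called higher, against 8.47% of all transcripts tested, and 0 were called lower, against 5.54%. H4c8 had only 5 to 8 counts per library at P10, and its P21 libraries helped it pass the filter, so its call is a description. From P10 to P15, 0 member transcripts were called, against 4.54%, with 2 at an unadjusted p under 0.05, beside 5253 of all 24751 tested. Between S119A and control over the ages 0 were called, against 0%, with 0 at an unadjusted p under 0.05, beside 294 of all 24751. The medians were -0.13 at P21, 0.69 at P15 and -0.04 for S119A, beside 0.003, 0.002 and -0.008 for all transcripts. DESeq2 called 0 at P15, 3 at P21 and 0 for S119A. The P21 count was 1 without either P10 control library, the P10 S119A library numbered 1 or the P21 S119A library numbered 2, and the P15 count was 1 without the P15 control library numbered 1.

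The libraries numbered 2 at P15 and P21 stood apart. H1f4 had 46, 30, 37 and 26 counts at P10, but 10 and 14 counts in the libraries numbered 1 at P15 and 81 and 74 in those numbered 2, and 7 and 8 against 40 and 38 at P21. H1f0 went the other way, at 3326 and 3570 against 1574 and 816 counts at P15. Without these 4 libraries, H1f4 fell by 1.57 at P15 (adjusted p = 0.0022, edgeR) and by 1.97 at P21 (adjusted p = 0.000309, edgeR). The rises at P21 were 1.76 for H4c8 (adjusted p = 0.00177, edgeR), 1.19 for H2bc21 and 0.68 for H2bc4, against 2.49, 1.33 and 1.56 with all libraries. The calls were then 3 at P15 (H1f4 lower, H2bc4 and H1f0 higher) and 4 at P21 (H1f4 lower, H4c8, H2bc21 and H2bc4 higher). The share of all transcripts called in that fit is not given, so these counts are descriptions, as is the call of H4c8.

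**Figure D5:**
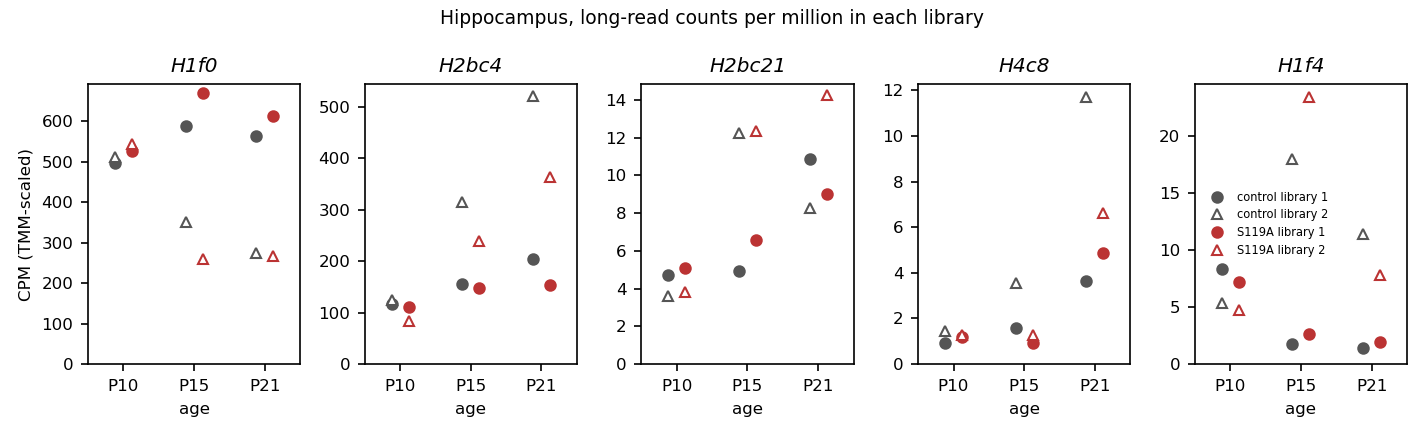
The vertical axes give TMM-scaled CPM in each hippocampus library for 5 genes by age, circles for libraries numbered 1 and triangles for those numbered 2, grey for control and red for S119A. H4c8 is highest at P21 (3.63 to 11.7 CPM), and for H1f0 and H1f4 the triangles part from the circles at P15 and P21.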

How the data were processed

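RNA from cortical cultures (48 libraries) and hippocampus (12 libraries) was sequenced by the authors. The deposited culture values are TPM, made with STAR 2.7.10 and RSEM 1.3.3 on GRCm38 per the submitters' processing notes, and no depth was given. The deposited hippocampus values are counts per RefSeq transcript from long reads aligned with minimap2, with 3162777 to 5687908 counts per library, after removal of cDNA below 500 bases. Both tables were used through their sample columns, with 0 columns of other series.

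The 14250 genes whose mean reached 1 TPM were tested as log2(TPM + 1) in 1 limma 3.58.1 fit over all culture groups (R 4.3.3), and hippocampus transcripts by the quasi-likelihood test of edgeR 4.0.16, with DESeq2 1.42.0 as an alternative. P-values were adjusted by Benjamini-Hochberg over all genes or transcripts of a comparison. Relations with Mki67 used permutation tests in scipy 1.17.1 (Python 3.11.15, numpy 2.4.6, pandas 2.3.3), and figures used matplotlib 3.10.9. The scripts were tested on simulated data. Values per library are given for the 2 highest members of each family, H1f0, H1f5, Mki67 and the called member of largest rise and fall in each comparison, and a few further members were chosen after their values were seen. The members and the gene lists were chosen with earlier results of these data known. Samples were grouped from the labels alone. The culture number was taken to pair libraries where at least 3 pairs existed and every pair's deviations correlated above 0.1, which held for paxillin siRNA at DIV3 and DIV5 without BDNF, for BDNF at DIV3 and DIV5, and for DIV10 against DIV3 with SC siRNA and BDNF. Alternatives were other pseudocounts, filters and normalizations, the culture block, leaving out libraries, fits of 2 groups, the series of library numbers, and Mki67 as a term. Stem-loops were searched in GENCODE M21 transcript models, and promoters came from RefSeq (GRCm38.p6).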

Additional observations from a re-analysis of the deposited data

Results flagged for a closer look

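A single library stood far from the rest of its group in 8 of the 98 groups of 4 to 10 libraries examined (Dixon's test at 95%), where chance gives about 4.9. At DIV5, culture 3 was the low library for H1f10 with SC siRNA and BDNF (369 TPM against 707 to 756 TPM), for H4c9 with SC siRNA (8.17 TPM against 22.9 to 24.0 TPM) and for H4c9 with SC siRNA and BDNF (12.5 TPM against 34.3 to 38.7 TPM). H4c9 was also low in culture 2 at DIV10 with paxillin siRNA, at 15.1 TPM against 28.3 to 30.8 TPM. H3c4 was high in culture 11 at DIV5, at 8.82 TPM with paxillin siRNA against 2.59 to 4.77 TPM, and at 9.19 TPM with paxillin siRNA and BDNF against 3.97 to 5.31 TPM. H4c12 was high in culture 1 at DIV3 with paxillin siRNA and BDNF, at 9.46 TPM against 5.12 to 5.46 TPM. H1f5 was high in culture 4 at DIV5 with paxillin siRNA and BDNF, at 5.98 TPM against 0.392 to 1.67 TPM.

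For H1f5, the difference between paxillin and SC siRNA was 2.36 higher at DIV10 than at DIV5 on the log2 scale. It rests in part on the DIV5 difference for which the group was proposed and is a description.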

How the results depend on the processing

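Of 52 called values of single members, 0 reversed in any alternative run and 16 kept their call in all of them, among these H1f2 from DIV3 to DIV10 in the 4 arms. Numbers of members called moved more, and where they did the cause was not tested unless fewer libraries entered the fit. The shares of all genes called in these alternative fits are not given, so the counts describe the processing only. With fits of only the 2 groups compared, the count was 6 for DIV3 against E15, 0 for DIV5 against DIV3, 0 for DIV10 against DIV5, 0 for siRNA at DIV5, 1 for BDNF at DIV3 with SC siRNA, and 3 for DIV10 against DIV3 with SC siRNA and BDNF. With the series of library numbers as a term, it was 5 for DIV3 against E15, 5 for DIV5 against DIV3, 5 for siRNA at DIV5, 3 for siRNA at DIV10 and 7 for DIV10 against DIV3 with SC siRNA. A pseudocount of 0.1 gave 0 for DIV10 against DIV5 and 1 for BDNF at DIV3 with paxillin siRNA, and Mki67 as a term gave 2 for DIV10 against DIV5. Without the 4 DIV10 libraries of low Mki67, the count was 5 for DIV10 against DIV5, 1 for siRNA at DIV10 with BDNF, and 10 and 20 for DIV10 against DIV3 with SC siRNA and with SC siRNA and BDNF. Without cultures 10 and 11, siRNA at DIV10 gave 5. With the culture number as a replicate block, the count was 0 for DIV10 against DIV5, 4 for siRNA at DIV5, 2 for siRNA at DIV10 and 1 each for siRNA at DIV3 and DIV5 with BDNF, of which only siRNA at DIV5 met the pairing check, and the hippocampus counts of 0, 3 and 0 did not move under the block.

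Leaving out 1 library at a time gave 0 to 3 for DIV3 against E15, 0 to 6 for DIV5 against DIV3, 0 to 2 for DIV10 against DIV5, 0 to 2 for siRNA at DIV5, 0 to 2 for siRNA at DIV10, and 0 to 1 for BDNF at DIV10 with paxillin siRNA. For DIV10 against DIV3 it gave 1 to 7 (SC), 11 to 15 (paxillin siRNA), 5 to 17 (SC with BDNF) and 6 to 13 (paxillin siRNA with BDNF). In hippocampus it gave 0 to 1 at P15 and 1 to 3 at P21, where the count of 1 came without either P10 control library, without the P10 S119A library numbered 1 or without the P21 S119A library numbered 2. P15 gave 2 without a filter on low counts and 3 without the 4 libraries numbered 2. The r with Mki67 at DIV10 moved from 0.01 to -0.74 without the 2 farthest libraries. The alternative without the 4 DIV10 libraries, the use of 8 DIV10 libraries for Mki67 and the comparison of DIV10 with DIV3 were chosen after seeing the data. Groups of 2 to 6 libraries, unknown depth and near-identical copies limit what low members can show.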
